A study of Mus musculus with 6 samples.

Results

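The tumour necrosis factor (TNF) superfamily genes measured here were the protein-coding rows whose symbol begins with Tnfrsf or Tnfsf followed by a digit, together with Tnf, Lta, Ltb, Ltbr, Cd40, Cd70 and the adaptor genes Traf1 to Traf6. The rule found 36 of the 25416 genes listed, of which 11 encode ligands, 19 encode receptors and 6 encode TRAF adaptors. Cd70 was not analysed here. RNA came from AML12 cells, hepatocytes of a mouse transgenic for human TGF alpha, which all samples carry. A Setdb1 siRNA (siSetdb1, n = 3) or a scrambled RNA (siNC, n = 3) was given for 72 h. Setdb1 encodes an enzyme that methylates lysine 9 of histone H3, a repressive mark, and the comparison asks which transcripts differ when it is reduced.

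Ligands of this superfamily are mostly trimeric membrane proteins that can be shed, and they bind receptors with cysteine-rich repeats outside the cell. Some receptors carry a death domain that can start caspase activation, others bind TRAF adaptors that lead to NF-kB and JNK signalling, and decoy receptors bind ligand but pass on no death signal. In liver, TNF, lymphotoxin, TRAIL, FAS ligand and TWEAK are known for roles in injury, regeneration and hepatocyte death.

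Setdb1 mRNA had 4.29, 4.21 and 3.29 FPKM (reads scaled to exon length and to the reads of the library) in the siSetdb1 libraries, against 8.41, 8.54 and 9.43 FPKM in the siNC libraries. All siSetdb1 libraries were lower than all siNC libraries. Libraries held 16790582 to 17835060 reads. Fold changes below are differences in mean log2(FPKM + 1), siSetdb1 minus siNC, a scale on which changes of low genes appear too small. A gene was called at a Benjamini-Hochberg adjusted p under 0.05 in limma over the 12846 genes that reached 0.5 FPKM in 3 libraries. Whether replicate libraries stem from separate cultures is not given in the labels, so the p-values measure only how far these samples spread, and that spread may be technical. The library siNC replicate 1 stood apart from the other siNC libraries on the first principal component (26.7 against 11.7 and 10.8). Calls of named genes, other than cell type markers, that its removal changes are given below without it. Of the hepatocyte markers, Hnf4a, Alb, Apoa1, Trf and Ttr had at least 1 FPKM in each library, whereas Cps1 and Serpina1a stayed under 0.5 FPKM. The summed level of the 9 hepatocyte markers measured was 49.3 to 74.6 FPKM in siSetdb1 and 94.0 to 142 FPKM in siNC. Of 6 macrophage and leukocyte markers, Cd14 and Cd68 exceeded 1 FPKM throughout, while the leukocyte gene Ptprc averaged 0.00942 FPKM in siSetdb1 and 0.00635 FPKM in siNC. The sum of these 6 markers was 37.7 to 44.5 FPKM in siSetdb1 and 51.7 to 61.1 FPKM in siNC, and all 5 lymphocyte and all 5 endothelial markers measured stayed under 0.5 FPKM. The epithelial markers Krt8, Krt18 and Cdh1 summed to 3330 to 3440 FPKM in siSetdb1 and 2710 to 3140 FPKM in siNC. Krt18 was the only marker of any set called higher (limma adjusted p = 0.0364). The markers Trf, Ttr, Cebpa, Cd68 and Cd14 were called lower (limma adjusted p = 0.00816, 0.0247, 0.0484, 0.012 and 0.0467). Of these, Cebpa passed the filter on low values only through the 3 siNC libraries, the group in which it is high. With 1 library left out at a time, the call of Trf held in all 6 fits and that of Cd68 in 5. That of Ttr held in 2, that of Krt18 in 1, and those of Cebpa and Cd14 in none. The 5 stellate cell and fibroblast markers summed to 0.84 to 1.22 FPKM in siSetdb1 and 0.634 to 0.649 FPKM in siNC, with 4 of them under 0.5 FPKM throughout. The part of these marker levels in the results below was not tested, and in bulk RNA fewer cells of a kind cannot be told apart from less RNA per cell.

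Receptor genes moved in both directions in siSetdb1 cells, and 3 neighbouring receptor genes on chromosome 7, known as decoys or related to them, rose. Of the 36 members 19 passed the filter on low values, and 3 of these rose (Tnfrsf23, Tnfrsf22 and Tnfrsf26) and 2 fell (Tnfrsf10b and Tnfrsf9). Over all genes tested 6.87% rose and 8.27% fell, and 15.1% were called in either direction, against 5 of 19 here. The balance of all calls turned with median-ratio scaling (1019 higher and 907 lower), with no filter (460 and 430) and without siNC replicate 1 (1101 and 1075). It also turned without siSetdb1 replicate 1 (363 and 326) or siSetdb1 replicate 2 (355 and 328). The 5 called members were all receptors, of 11 receptor genes tested, and limma called none of the 3 ligand genes or 5 TRAF genes tested, none of which had an unadjusted p under 0.05 or was called by limma-voom. The median log2 fold change was 0.02 over the 19 tested members (0.09 without siNC replicate 1) and -0.02 over all genes tested. The groups did not overlap for 7 of the 19, or 36.8%, against 39.2% of all genes tested. Of these 7, 4 were higher (17.6% of all genes tested) and 3 lower (21.6%). Without siSetdb1 replicate 2 or siSetdb1 replicate 3, 3 members were called, in fits that called 683 and 978 of all 12846 genes tested. Only 1 member was called lower without any 1 of the libraries except siNC replicate 2.

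**Figure D1:**
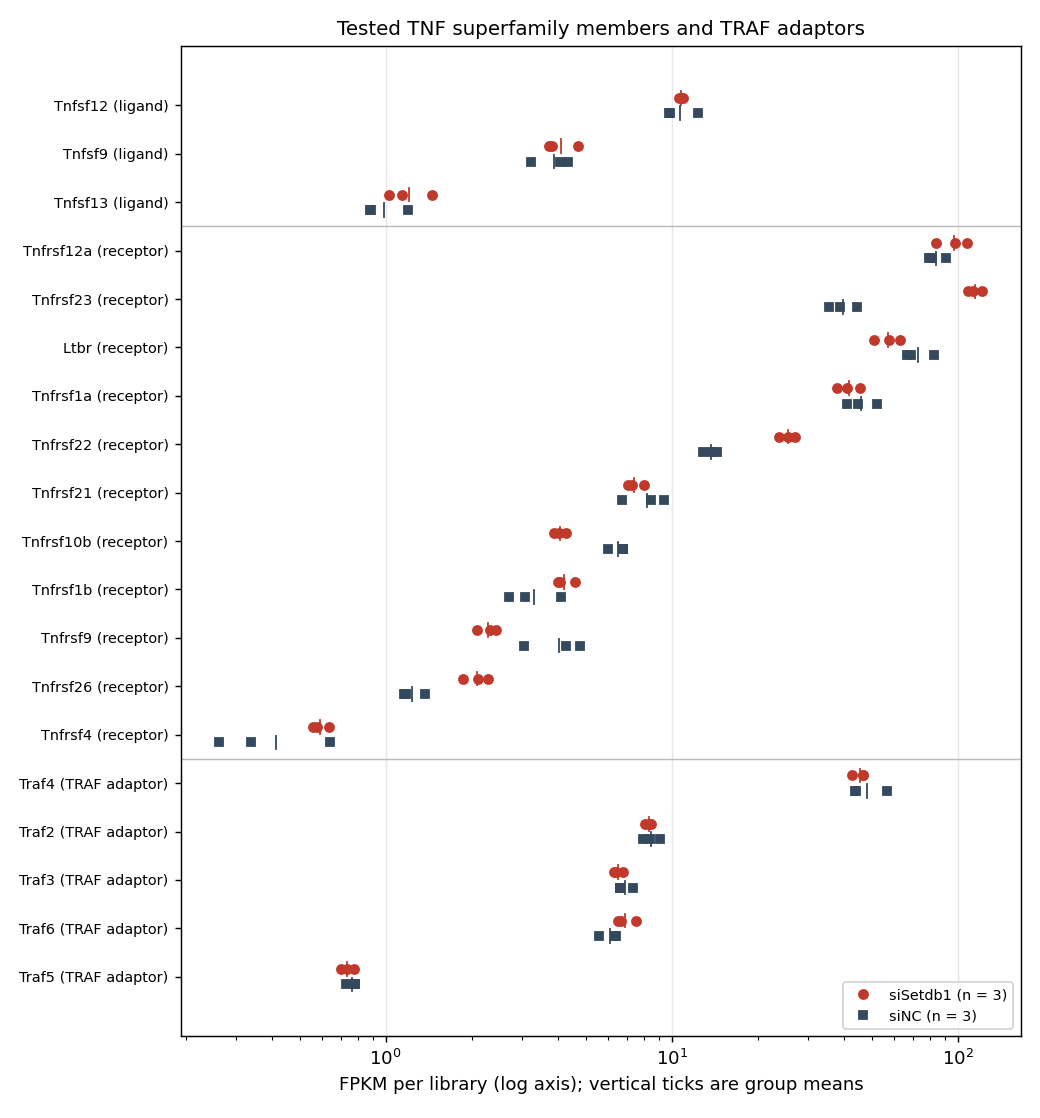
FPKM of each tested member in each library on a log axis, with siSetdb1 (circles, n = 3) above siNC (squares, n = 3) and group means as vertical ticks. Tnfrsf12a, Tnfrsf23, Ltbr, Traf4 and Tnfrsf1a had the highest levels, and the siSetdb1 circles lie to the right of the siNC squares for Tnfrsf23, Tnfrsf22 and Tnfrsf26.

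Tnfrsf23, Tnfrsf22 and Tnfrsf26 lie side by side on the minus strand of mouse chromosome 7, over 78.2 kb of mm10 (143607659 to 143685872). In mouse, the products of Tnfrsf22 and Tnfrsf23 are known as decoy receptors for TRAIL, the ligand encoded by Tnfsf10, and lack a death domain, and Tnfrsf26 is a related receptor gene whose ligand is not established. Tnfsf10 and the decoy receptor gene Tnfrsf11b were not analysed here. The coding sequences of Tnfrsf22 and Tnfrsf23 in GENCODE M21, 594 and 528 bases long, were identical at 90.7% of their 528 aligned bases, while Tnfrsf26 (612 bases) was identical to Tnfrsf22 at 65.2%. The longest coding run that Tnfrsf22 and Tnfrsf23 share without a difference was 102 bases, longer than the reads of 50 bases. It is shown because reads from it cannot be assigned to either gene, with the aligned bases of Tnfrsf26 beneath it. There, capitals mark the 37 bases that differ from Tnfrsf22 or have no counterpart in it. The Tnfrsf26 stretch is 101 bases long, a net difference of 1, and gaps lie on both sides of the alignment.
Tnfrsf22 and Tnfrsf23: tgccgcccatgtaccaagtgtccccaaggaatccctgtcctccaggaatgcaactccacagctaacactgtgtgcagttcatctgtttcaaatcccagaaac
Tnfrsf26: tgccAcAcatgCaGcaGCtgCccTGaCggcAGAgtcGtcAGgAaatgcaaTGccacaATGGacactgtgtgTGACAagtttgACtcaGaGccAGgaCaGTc

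Tnfrsf23 (ENSMUSG00000037613, 143665809 to 143685872) had 109, 122 and 113 FPKM in siSetdb1, against 38.8, 35.5 and 44.5 FPKM in siNC. All siSetdb1 libraries lay above all siNC libraries. The means were 115 ± 6.5 FPKM in siSetdb1 and 39.6 ± 4.5 FPKM in siNC (SD, n = 3 each), a ratio of 2.9, with a log2 fold change of 1.51 (SE 0.09, limma adjusted p = 0.000474). In siSetdb1 this gene had the highest mean level of the tested members, ahead of Tnfrsf12a at 96.9 FPKM, and in siNC it stood behind Tnfrsf12a, Ltbr, Traf4 and Tnfrsf1a. Its reads numbered 7467, 8246 and 8000 in siSetdb1 and 2584, 2450 and 3030 in siNC.

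Tnfrsf22 (ENSMUSG00000010751, 143634806 to 143649661) had 25.6, 27.0 and 23.8 FPKM in siSetdb1, against 12.9, 13.8 and 14.4 FPKM in siNC. The groups did not overlap, and the mean was 1.86 times as high in siSetdb1 (log2 fold change 0.85, SE 0.08, limma adjusted p = 0.00127). Of the 50-base words in Tnfrsf22 transcripts 17.3% also occur in Tnfrsf23, and of those in Tnfrsf23 18% occur in Tnfrsf22, so that the split of reads between them is uncertain. Words found in no other annotated gene made up 72.6% of Tnfrsf22 and 80.7% of Tnfrsf23.

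Tnfrsf26 (ENSMUSG00000045362, 143607659 to 143628722) had 1.87, 2.11 and 2.28 FPKM in siSetdb1, against 1.37, 1.18 and 1.16 FPKM in siNC. This receptor gene was higher in each siSetdb1 library, by 0.47 on the log2 scale (SE 0.09, limma adjusted p = 0.0179), and its mean was 1.69 times as high. The log2(FPKM + 1) scale shrinks a change at this level. On reads, limma-voom gave 0.75, against 0.89 for Tnfrsf22 and 1.54 for Tnfrsf23. In limma, the adjusted p of Tnfrsf26 was 0.0693, 0.0638 and 0.0574 without siSetdb1 replicate 2, siSetdb1 replicate 3 and siNC replicate 2. Only 1.89% of its 50-base words occur in another gene, the antisense transcript E230032D23Rik. E230032D23Rik runs against the 3 receptor genes on the plus strand and had 1, 7 and 3 reads in siSetdb1 and 1, 0 and 1 reads in siNC.

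The genes around the cluster were read once these rises had been seen. Within 500 kb on either side 20 other genes were listed, of which 8 were tested, 1 rose and none fell. That gene was Osbpl5, which encodes a lipid transfer protein and lies next to Tnfrsf23 (midpoint 76.1 kb from the middle of the cluster), with 8.77 FPKM on average in siSetdb1 and 6.54 FPKM in siNC. Its log2 fold change of 0.37 had a limma adjusted p of 0.0239, which became 0.0704, 0.0756, 0.0799 and 0.0723 without siSetdb1 replicates 1, 2 and 3 and siNC replicate 2. On the same side, Mrgpre had a log2 fold change of 0.30 and was not called (limma adjusted p = 0.0586). Osbpl5, Mrgpre, Cars and Nap1l4 were higher in siSetdb1 without overlap, as were 17.6% of all genes tested. Slc22a18, Nadsyn1, Dhcr7 and Shank2 overlapped between groups. On the other side of the cluster, the transfer RNA synthetase gene Cars had a log2 fold change of 0.17 (adjusted p = 0.122, and 0.0342 without siNC replicate 1). The imprinted gene Phlda2, also on that side, had 3, 1 and 1 reads in siSetdb1 and 1 read in each siNC library, which overlap, and was not tested.

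**Figure D2:**
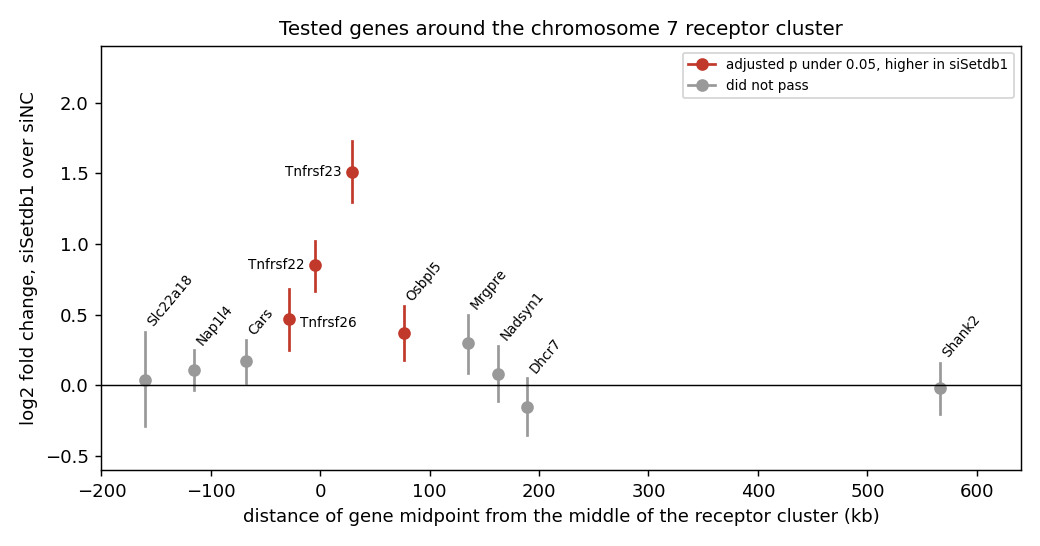
Log2 fold change of siSetdb1 over siNC with its 95% interval for each tested gene that reaches within 500 kb of the receptor cluster, against the distance in kb of the gene's midpoint from the middle of the cluster. Tnfrsf23, Tnfrsf22 and Tnfrsf26 stand at 1.51, 0.85 and 0.47, Osbpl5 at 0.37, and the other 7 genes, none of them called, between -0.15 and 0.30. The log2(FPKM + 1) scale shrinks changes of low genes such as Tnfrsf26.

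Tnfrsf10b (ENSMUSG00000022074, chromosome 14, 69767472 to 69784411), which encodes the death receptor for TRAIL in mouse, had 3.89, 4.03 and 4.26 FPKM in siSetdb1, against 6.76, 5.98 and 6.74 FPKM in siNC. The groups did not overlap. The mean fell to 4.06 ± 0.19 FPKM in siSetdb1, against 6.49 ± 0.45 FPKM in siNC, with a log2 fold change of -0.57 (SE 0.08, limma adjusted p = 0.00484). The death receptor gene was thus lower in the libraries in which the genes of its decoys were higher. Fas, a death receptor gene of the same family that the naming rule does not reach, had 4.58, 5.37 and 5.76 FPKM in siSetdb1 and 7.42, 7.55 and 9.51 FPKM in siNC. It fell by 0.55 on the log2 scale (limma adjusted p = 0.0202), and leaving out siSetdb1 replicate 1 or 2 gave 0.0789 or 0.0661.

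Other death-domain receptors were not called. Tnfrsf1a, the main receptor for soluble TNF, had 41.1, 38.0 and 45.7 FPKM in siSetdb1 and 52.3, 40.9 and 44.9 FPKM in siNC, which overlap (log2 fold change -0.14, 95% interval -0.39 to 0.11). Tnfrsf21, which encodes death receptor DR6, averaged 7.41 ± 0.51 FPKM in siSetdb1 and 8.19 ± 1.36 FPKM in siNC (log2 fold change -0.12, 95% interval -0.39 to 0.15). Tnfrsf25, a receptor gene of T cells, had at most 1 read in any library.

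Among receptors that bind TRAF adaptors and lack a death domain, Tnfrsf9 fell. Tnfrsf9 (ENSMUSG00000028965, chromosome 4, 150914562 to 150946102), which encodes the costimulatory receptor 4-1BB, had 2.32, 2.09 and 2.43 FPKM in siSetdb1, against 4.27, 3.04 and 4.79 FPKM in siNC. All siSetdb1 libraries were below all siNC libraries, with a log2 fold change of -0.60 (SE 0.14, limma adjusted p = 0.0269). The call was lost without any siSetdb1 library (adjusted p = 0.088, 0.0962 and 0.0594 without replicates 1, 2 and 3) and without siNC replicate 1 (0.0505) or siNC replicate 3 (0.0591). Its ligand gene Tnfsf9 had 4.71, 3.72 and 3.82 FPKM in siSetdb1 and 4.06, 3.21 and 4.33 FPKM in siNC, which overlap (log2 fold change 0.07, 95% interval -0.21 to 0.34).

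Ltbr, the lymphotoxin beta receptor gene, had 57.5, 51.0 and 62.7 FPKM in siSetdb1, against 82.7, 66.3 and 68.5 FPKM in siNC. The groups did not overlap, yet the limma adjusted p was 0.0775 (log2 fold change -0.34, 95% interval -0.59 to -0.08). Its adjusted p was 0.0305 with trends in GC content and gene length removed. Tnfrsf12a, the receptor for TWEAK and the member with the highest mean over all libraries (90.4 FPKM), had 84.1, 98.1 and 108 FPKM in siSetdb1 and 91.2, 79.7 and 81.5 FPKM in siNC, which overlap (log2 fold change 0.20, adjusted p = 0.241). With the same trends removed its adjusted p was 0.0279.

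Tnfrsf1b, the second TNF receptor gene, had 4.0, 4.07 and 4.60 FPKM in siSetdb1 and 4.09, 2.69 and 3.08 FPKM in siNC. Only siNC replicate 1 reached the siSetdb1 range, and the limma adjusted p was 0.148 (log2 fold change 0.30). Without siNC replicate 1 the log2 fold change was 0.43 and the adjusted p 0.0209. Tnfrsf4, a receptor gene of T cells that encodes OX40, had 0.636, 0.558 and 0.575 FPKM in siSetdb1 and 0.262, 0.337 and 0.640 FPKM in siNC. It thus passed the filter through all 3 siSetdb1 libraries and siNC replicate 3 (limma adjusted p = 0.349).

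**Figure D3:**
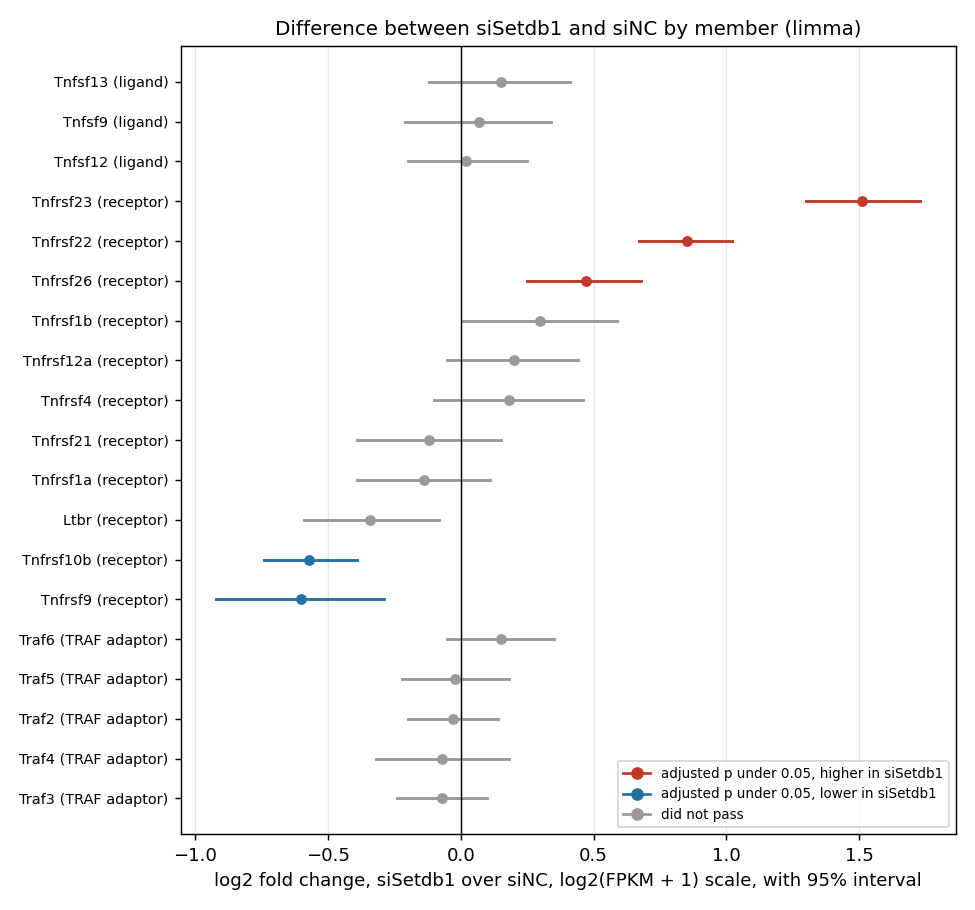
Log2 fold change of siSetdb1 over siNC with its 95% interval from limma for the 19 tested members, grouped into ligands, receptors and TRAF adaptors, with called genes in colour. The 3 genes called higher are Tnfrsf23, Tnfrsf22 and Tnfrsf26 and the 2 called lower are Tnfrsf10b and Tnfrsf9, and the intervals of all 3 ligands and all 5 adaptors cross 0.

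Promoter windows of 250 bases before to 50 bases after a gene's start (RefSeq, GRCm38.p6) were found for 29 of the 36 members, in 32 windows, and were read for the NF-kB consensus, for the AP-1 motif TGANTCA and for the EGR motif GCGNGGGCG on both strands. An NF-kB match was found in 4 of the 32 windows, an AP-1 match in 6 and an EGR match in 3, against 4.51%, 7.81% and 5.55% of all 32851 windows. The pair of overlapping windows of Tnfsf13b holds the same AP-1 match, which is counted in each. No window was used for Tnfrsf22, Tnfrsf26 or Tnfrsf10b. The windows of the member with the largest rise (chr7:143685826-143686125, minus strand) and of 1 of 2 starts of Tnfrsf9 (chr4:150927749-150928048, plus strand) are shown, with motif matches in capitals. In the Tnfrsf9 window shown, 2 overlapping NF-kB matches begin 43 and 42 bases before that start and an AP-1 match begins 15 bases before it. Both Tnfrsf9 windows lie inside the span given above for the gene, and which start these cells use was not tested.
Tnfrsf23: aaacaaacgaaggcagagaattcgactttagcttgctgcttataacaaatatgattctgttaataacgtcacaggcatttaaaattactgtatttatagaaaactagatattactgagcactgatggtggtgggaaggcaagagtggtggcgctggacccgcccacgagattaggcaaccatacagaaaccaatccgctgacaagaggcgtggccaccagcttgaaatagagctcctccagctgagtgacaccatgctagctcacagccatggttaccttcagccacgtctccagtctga
Tnfrsf9: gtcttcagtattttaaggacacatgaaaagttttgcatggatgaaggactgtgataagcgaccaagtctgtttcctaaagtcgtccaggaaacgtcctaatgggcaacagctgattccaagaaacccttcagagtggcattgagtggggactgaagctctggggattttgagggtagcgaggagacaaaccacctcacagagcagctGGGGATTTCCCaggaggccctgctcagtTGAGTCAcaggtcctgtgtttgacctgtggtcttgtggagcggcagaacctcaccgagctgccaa
The Tnfrsf23 window holds none of the 3 motifs, nor does the window of the other Tnfrsf9 start or that of Traf1. Traf3, which was not called, has an NF-kB match 10 bases before the start. Ltb and Tnfrsf8, which were not tested, have one 87 and 168 bases before it.

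Ligand genes were low in these cells. Tnfsf12, which encodes TWEAK, was the most abundant, with 11, 10.6 and 10.8 FPKM in siSetdb1 and 12.4, 9.90 and 9.76 FPKM in siNC (log2 fold change 0.02, 95% interval -0.20 to 0.25). Tnfsf13, which encodes APRIL, a survival factor for B cells, averaged 1.21 ± 0.22 FPKM in siSetdb1 and 0.989 ± 0.183 FPKM in siNC (log2 fold change 0.15, adjusted p = 0.401). The values of both are uncertain, since 46.8% of the 50-base words of Tnfsf12 and 57.3% of those of Tnfsf13 also lie in the overlapping read-through gene Tnfsfm13, and no step that marks strand is named for telling Tnfsf13 from its antisense gene Tnfsf13os. None of the 3 tested ligands was called by limma, with unadjusted p of 0.826, 0.227 and 0.595 for Tnfsf12, Tnfsf13 and Tnfsf9.

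The other 8 ligand genes held between 1 and 18 reads over all 6 libraries together and were not tested. Tnf itself had 0, 1 and 1 reads in siSetdb1 and 0, 0 and 1 reads in siNC, and a library with 0 reads allows up to 0.109 FPKM of Tnf (3 reads, counting error only). Lta and Tnfsf15 had no read in siSetdb1, and in siNC had 0, 1 and 1 reads and 1 read in each library. Ltb, which encodes the partner of lymphotoxin alpha, had 0, 1 and 0 reads in siSetdb1 and 2, 0 and 2 reads in siNC. No difference was detectable at this depth for these genes. The B-cell factor gene Tnfsf13b had 6 reads in siSetdb1 and 12 in siNC, and Tnfsf4, Tnfsf14 and Tnfsf18 had 8, 4 and 1 reads over all libraries.

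Of the 8 receptor genes under the filter, Tnfrsf13c, Tnfrsf18, Tnfrsf14 and Tnfrsf11a had 64, 57, 23 and 20 reads over all libraries and the others 1 to 3. Tnfrsf14, which encodes the herpesvirus entry mediator, had 2, 2 and 1 reads in siSetdb1 and 5, 8 and 5 reads in siNC, with no overlap. Tnfrsf18, a receptor gene of T cells, had 7, 10 and 7 reads in siSetdb1 and 13, 8 and 12 in siNC, which overlap. Cd40, Tnfrsf8 and Tnfrsf17, receptor genes of lymphocytes, stood at 0 or 1 read in each library.

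The TRAF adaptor genes that passed the filter were not called, and Traf1, which did not pass it, had fewer reads in siSetdb1. Traf2, the adaptor gene of the TNF receptor complexes, averaged 8.30 ± 0.20 FPKM in siSetdb1 and 8.50 ± 0.60 FPKM in siNC (log2 fold change -0.03, 95% interval -0.20 to 0.14), and Traf3, a brake on noncanonical NF-kB signalling, 6.48 ± 0.23 and 6.85 ± 0.43 FPKM in siSetdb1 and siNC (-0.07, 95% interval -0.24 to 0.10). Traf6, which also serves Toll-like and interleukin-1 receptors, had 7.52, 6.47 and 6.66 FPKM in siSetdb1 and 5.58, 6.36 and 6.4 FPKM in siNC, with no overlap but an adjusted p of 0.269 (log2 fold change 0.15). Traf4 averaged 45.5 FPKM in siSetdb1 and 48.1 FPKM in siNC (adjusted p = 0.689) and Traf5 0.735 and 0.763 FPKM in siSetdb1 and siNC (adjusted p = 0.878).

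Traf1 (ENSMUSG00000026875, chromosome 2, 34941750 to 34961772) encodes an adaptor that binds TRAF2 and is known as a target of NF-kB. It had 8, 7 and 10 reads in siSetdb1, against 79, 38 and 50 reads in siNC. The groups lay far apart, but the gene has 8819 exon bases, so that these reads came to 0.0542 ± 0.0087 FPKM in siSetdb1 and 0.370 ± 0.147 FPKM in siNC, under the filter in all libraries but siNC replicate 1. A filter of 10 reads in 3 or more libraries in place of 0.5 FPKM was chosen after these values were seen, and Traf1 passed it through all 3 siNC libraries and siSetdb1 replicate 3, so that it entered by the group in which it is high. With it, limma-voom gave a log2 fold change of -2.63 on the reads (SE 0.39, adjusted p = 0.00155), where 18.3% of 13412 genes were called. Without siNC replicate 1 this was -2.34 (adjusted p = 0.000276). On the log2(FPKM + 1) scale the adjusted p was 0.0157 with this filter and 0.0805 with no filter, and the exact two-sided permutation test of its FPKM gave p = 0.1, the smallest that 3 against 3 allows.

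**Figure D4:**
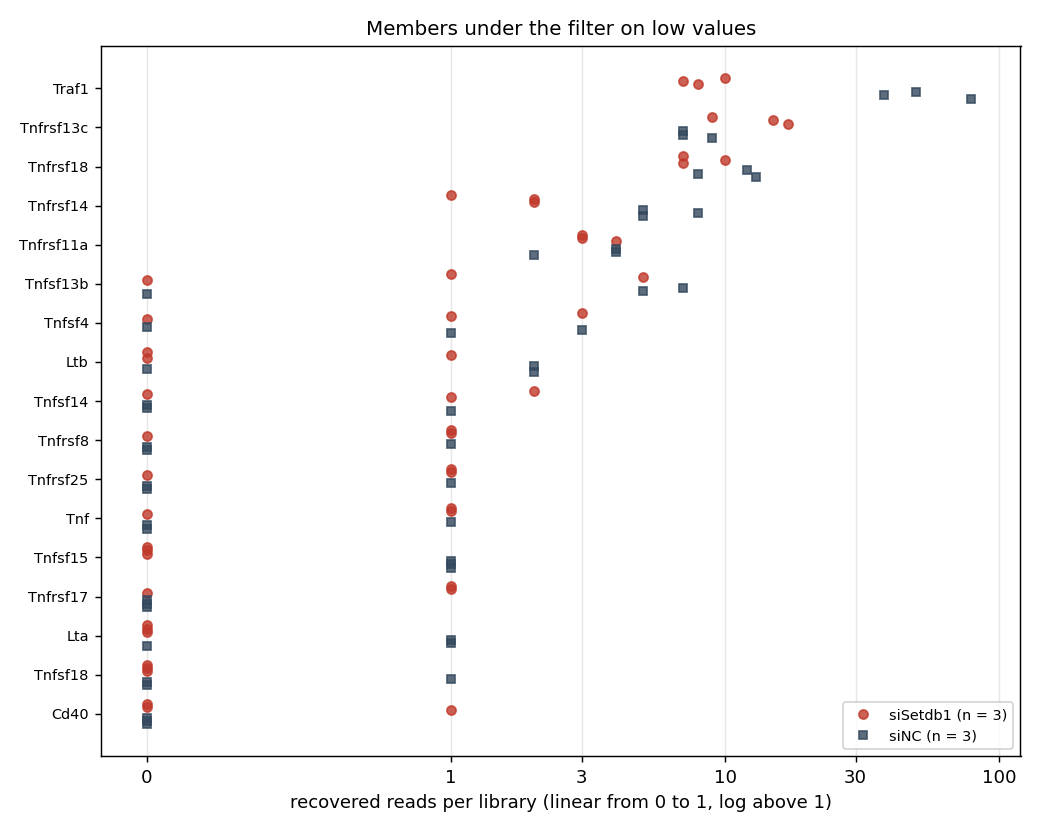
Recovered reads per library of the 17 members under the filter, on an axis that is linear from 0 to 1 and logarithmic above, with siSetdb1 (circles) above siNC (squares). Traf1 has 7 to 10 reads in siSetdb1 and 38 to 79 in siNC, and 11 of the 17 have under 10 reads in all libraries together.

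Family genes outside the naming rule were also read. Of 9 listed, 7 had a row and 4 were tested, of which Fas fell and the others were not called. Eda2r, a receptor gene for ectodysplasin, averaged 5.05 FPKM in siSetdb1 and 6.01 FPKM in siNC (adjusted p = 0.231, and 0.0413 without siNC replicate 1). The ligand gene Eda averaged 2.22 and 2.39 FPKM in siSetdb1 and siNC (adjusted p = 0.619), and the receptor gene Relt 1.36 and 1.42 FPKM (adjusted p = 0.804). Fasl, Ngfr and Cd27 stayed under the filter.

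Genes below the receptors were read from a list of 52 signalling, inhibitor and shedding genes, of which 48 were tested. Of these 5 rose, 6 fell and 37 were not called, or 22.9% called against 15.1% of all genes tested, and the list median was 0.01. The number called was 4, 6, 7 and 7 without siSetdb1 replicates 2, 3 and 1 and siNC replicate 2, and 12 without siNC replicate 1. In the same order, these fits called 683, 978, 689, 1060 and 2176 of all 12846 genes tested. Members of the death-inducing complex and of the caspase cascade moved in both directions. Casp8, the initiator caspase gene, had 42.6, 44.2 and 40.5 FPKM in siSetdb1, against 27.4, 31.4 and 32.2 FPKM in siNC (log2 fold change 0.48, limma adjusted p = 0.0104, and 0.0511 without siSetdb1 replicate 2). Cflar, which encodes the caspase-8 regulator FLIP, had 5.86, 6.26 and 5.80 FPKM in siSetdb1, against 3.39, 3.70 and 4.12 FPKM in siNC (0.56, adjusted p = 0.00633). Both were higher in each siSetdb1 library.

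Further down the same cascade, Bid fell. Bid, which carries the signal of caspase-8 to mitochondria, had 16.5, 16.1 and 16 FPKM in siSetdb1, against 27.8, 25.2 and 24.4 FPKM in siNC (log2 fold change -0.64, limma adjusted p = 0.00241). All siSetdb1 libraries were below all siNC libraries. The adaptor gene Fadd averaged 3.12 ± 0.30 FPKM in siSetdb1 and 4.13 ± 0.47 FPKM in siNC and was not called (adjusted p = 0.0702). Tradd and Ripk1, which act at the TNF receptor itself, had log2 fold changes of -0.02 and 0.07 (adjusted p = 0.919 and 0.564), and the caspase inhibitor gene Xiap one of 0.51 (adjusted p = 0.0831). Without siNC replicate 1, the lowest library for Xiap, this was 0.31 and passed the test (adjusted p = 0.0421).

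On the NF-kB branch, the called subunit genes of the kinase that releases NF-kB were higher, and the called genes of NF-kB subunits were lower. The kinase genes Chuk and Ikbkg rose by 0.41 and 0.29 on the log2 scale (limma adjusted p = 0.0272 and 0.0456), while the third subunit gene, Ikbkb, averaged 5.24 and 5.32 FPKM in siSetdb1 and siNC (adjusted p = 0.9). Relb and Nfkb1, genes of NF-kB subunits, fell by 0.50 and 0.28 (adjusted p = 0.0108 and 0.0289). The subunit genes Rela and Nfkb2 were lower without overlap but not called (log2 fold change -0.34 and -0.30, adjusted p = 0.0574 and 0.0668). Nfkb2 was called lower without siNC replicate 1. The subunit gene Rel overlapped between groups (log2 fold change 0.13, adjusted p = 0.344). Tnfaip3, which encodes the ubiquitin-editing inhibitor A20, fell to 14.4 ± 2.0 FPKM in siSetdb1, against 21.1 ± 2.8 FPKM in siNC (adjusted p = 0.031). Nfkbia fell the furthest of the list, with 39.5, 32.9 and 41.5 FPKM in siSetdb1, against 90.2, 71.4 and 85.2 FPKM in siNC (log2 fold change -1.10). Madd, which encodes an adaptor of the TNF receptor death domain, rose to 4.33 ± 0.28 FPKM in siSetdb1, against 3.06 ± 0.25 FPKM in siNC (adjusted p = 0.0213). Of these calls that of Nfkbia held without any 1 library, and Relb was lost only without siSetdb1 replicate 2 (adjusted p = 0.0502). Those of Chuk, Madd, Ikbkg and Nfkb1 were lost without any siSetdb1 library and without siNC replicate 2, those of Madd and Nfkb1 also without siNC replicate 3 and that of Ikbkg without siNC replicate 1. Tnfaip3 was lost without siSetdb1 replicates 2 and 3 and siNC replicates 1 and 3. The highest such adjusted p was 0.104 for Chuk, 0.0946 for Madd, 0.169 for Ikbkg, 0.0988 for Nfkb1 and 0.0971 for Tnfaip3. The ubiquitin ligase gene Birc3, a known NF-kB target, averaged 4.23 FPKM in siSetdb1 and 5.70 FPKM in siNC (adjusted p = 0.0536), and without siNC replicate 1 it was called lower (log2 fold change -0.41, adjusted p = 0.0335). Adam17, the gene of the sheddase that releases TNF and its receptors, had a log2 fold change of -0.08 (adjusted p = 0.617).

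**Figure D5:**
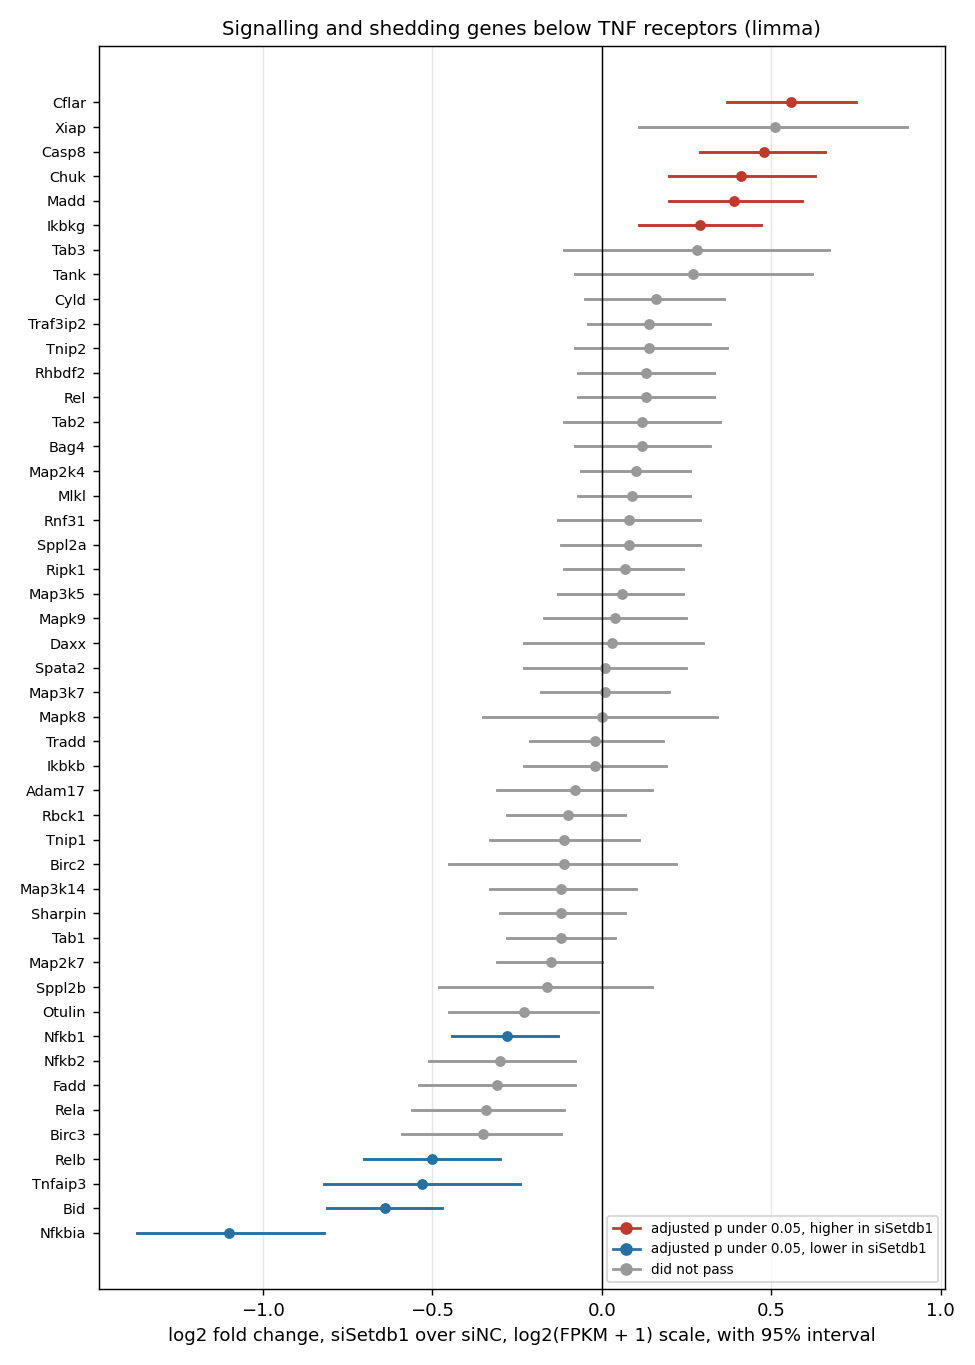
Log2 fold change of siSetdb1 over siNC with its 95% interval from limma for the tested signalling and shedding genes reported here, in order of the change, with called genes in colour. The range runs from 0.56 (Cflar) to -1.10 (Nfkbia), with Cflar, Casp8, Chuk, Madd and Ikbkg called higher and Nfkbia, Bid, Tnfaip3, Relb and Nfkb1 called lower.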

How the data were processed

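Polyadenylated RNA from 3 siSetdb1 and 3 siNC samples was sequenced as single reads of 50 bases, per the labels' protocols, which name no step that marks strand. The submitters' processing notes name mm10 as the build and, with no roles, RSEM 1.2.12, DESeq2 1.4.5, HISAT2 2.0.4 and Bowtie2 2.2.5. The deposited values carry no unit in their header and were read as FPKM made by the authors: multiplied by GENCODE M21 exon length and 1 total per library, 98.8% of 25372 genes gave whole reads in all libraries within 0.01. Groups follow the sample titles. The deposited FPKM were tested as log2(FPKM + 1) with limma 3.58.1 (R 4.3.3, robust, with a variance trend, group as the only term, two-sided), after a filter of 0.5 FPKM in 3 libraries, and the method was tested on simulated data. Alternatives were limma-voom on recovered reads, a variance trend on reads, a pseudocount of 0.1, no filter, median-ratio scaling, removal of GC and length trends, a replicate block and leaving out each library. A filter of 10 reads was added after seeing the data. All members were named (those under the filter if above 0 in any library), with every called gene of the lists (at most 12 a list) except 1 that is counted but not reported here by name and every tested gene of the family list; other signalling genes were chosen after their values were seen. Osbpl5 and other genes near the cluster were chosen after their values were seen. The members and lists were chosen with earlier results of these data known. Libraries of 16790582 to 17835060 reads limit the precision of low genes, and limits from counts cover counting error only.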

Additional observations from a re-analysis of the deposited data

How the results depend on the processing

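Tnfrsf23, Tnfrsf22 and Tnfrsf10b were called in the same direction under all 15 alternatives, as was the lower Setdb1, and no call turned its direction. Among 43 named genes followed under the alternatives, the signs of Ikbkb, Relt, Ripk1, Tnfsf12, Tnfsf9, Tradd, Traf2 and Traf4 turned under some. None of these was called, and their log2 fold changes there ran from -0.04 (Tnfsf9) to 0.09 (Tradd). With no filter 890 of 25416 genes, 1 lower member and 6 signalling genes were called. With GC and length trends removed 2892 of 12832 genes were called, and 8 members, 5 of them higher. With limma-voom and the filter of 10 reads, chosen after the values of Traf1 were seen, 4 members were lower. The added ones were Traf1, which entered by the group in which it is high, and Ltbr. For Ltbr the limma-voom adjusted p was 0.0484 with this filter and 0.0501 with that of 0.5 FPKM. Leaving out 1 library gave 683 to 2176 genes, 3 to 5 members, 2 to 4 higher, 1 to 2 lower and 4 to 12 signalling genes. With the replicate block 1015 genes and 7 signalling genes were called, and Tnfrsf26 was not (adjusted p = 0.0611). The labels do not say whether the replicate numbers pair the samples. Deviations of same-numbered libraries correlated at -0.157, 0.167 and -0.172, and those of other pairs at -0.204 to 0.283. Deviations from a mean of 3 libraries depend on each other, so these values cannot settle whether samples were paired. Of 645 values of 43 named genes under the alternatives, 576 kept their side of the threshold, 52 lost the call and 17 gained it. The cause of these changes was not tested. Depth limits the 11 members with under 10 reads in all.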
